A study of Mus musculus with 8 samples.

Results

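The genes described here are 9 components of the pathway by which islet cells respond to insulin and to insulin-like growth factors. They are the receptors Insr and Igf1r, the receptor substrates Irs1 and Irs2, the kinases Pik3ca, Akt1, Akt2 and Mapk3, and the transcription factor Foxo1. They were listed by name and function, and every probe whose RefSeq accession carries one of these symbols was taken. This gave 15 of the 56605 mouse probes on the array, and the 9 genes are among 22911 genes that could be named. There is 1 probe each for Irs1, Irs2, Pik3ca and Mapk3. Insr, Igf1r, Akt1 and Foxo1 have 2 each, and Akt2 has 3. The scanner software marks a spot as well above background or not, and a probe so marked on all 8 arrays is called detected here. Of the 15 probes, 14 were detected, and the remaining one, the second probe of Insr (A_52_P6490), was dim on all 8 arrays. At least 1 probe of each of the 9 genes was therefore measured on every array.

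Islet RNA from β-cell-specific Fbln5 knockout mice (βFbln5KO) was set against that of Fbln5-floxed control mice. Fbln5 is a secreted protein of elastic fibers, and the comparison asks which genes differ in islets whose β-cells lack it. The floxed Fbln5 allele is carried by both groups, and the βFbln5KO mice also carry Ins1-Cre, in which the mouse insulin 1 promoter drives the recombinase, so that the islet cells other than β-cells keep the gene. All mice were 11 weeks old, and RNA was taken directly after islet isolation from 150 islets per extraction, with 4 extractions per group and no treatment stated. The labels do not say that the extractions came from separate animals, so the p-values measure the spread between these 4 arrays per group, and the number of arrays limits the precision. Each array was read in 1 colour, and the log2 values below are the scanner software's processed signal relative to the 75th percentile of the same array, so 0 is that percentile and a difference of 1 is a doubling of signal. Signals of different probes cannot be set against each other as RNA levels.

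All 8 arrays lay on 1 slide and were read in 1 scan, but the control arrays filled 1 row of the slide and the βFbln5KO arrays the other, and these rows and the genotypes cannot be told apart. Spots well above background made up 56.6% to 58.8% of each control array and 52.6% to 56.6% of each βFbln5KO array. The 8 β-cell markers (Ins1, Ins2, Pdx1, Mafa, Nkx6-1, Slc2a2, Ucn3 and Iapp) were all detected, with a summed linear signal of 981 to 1170 on control arrays and 912 to 1000 on βFbln5KO arrays. Fbln5 itself, the check of the labels, gave −1.70, −1.32, −2.05 and −1.83 on control arrays 1 to 4 and −2.74, −2.40, −2.38 and −1.37 on the arrays labelled βFbln5KO 1 to 4. The first 3 of these lay below every control array, whereas replicate 4 lay within the control range (limma, adjusted p = 0.342). For the 9 genes, the differences without the array labelled βFbln5KO replicate 4 are therefore given too. In islet extracts, fewer cells of a type and less RNA per cell cannot be told apart.

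Insulin and the insulin-like growth factors bind receptor tyrosine kinases on the cell surface, which phosphorylate the insulin receptor substrates. The substrates recruit phosphoinositide 3-kinase, whose lipid product brings Akt kinases to the membrane, and active Akt phosphorylates FoxO1 and holds it out of the nucleus. A parallel branch runs through Ras, Raf and MEK to the ERK kinases. In β-cells this network is known for its part in growth, survival and the adaptation of cell mass to insulin demand, and much of its control is exerted on protein phosphorylation, which an expression array does not measure.

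None of the 9 genes passed the threshold of an adjusted p of 0.05 in limma, read on the brightest probe of each gene, and 1 of 9 (Insr, with a lower signal in βFbln5KO) had an unadjusted p under 0.05. By the same rules, 0.0147% of the 13650 detected genes passed after adjustment, and 4.09% without adjustment (3.08% lower and 1.01% higher). Over all 22911 genes, which include many probes near background, 0.0131% passed after adjustment and 19.5% without it (2.68% lower and 16.8% higher), so the detected genes are the closer background for these 9. With 9 genes, 1 gene is 11.1%, so the single call is not a result about the group. The log2 differences between βFbln5KO and control ran from −0.34 for Insr to 0.67 for Pik3ca, with 6 positive and 3 negative. Without the array labelled βFbln5KO replicate 4, they were −0.33 for Insr, −0.015 for Igf1r, 0.13 for Irs1, 0.27 for Irs2, 1.12 for Pik3ca, 0.0019 for Akt1, −0.0044 for Akt2, 0.0067 for Foxo1 and 0.054 for Mapk3, so that Akt2 and Foxo1 changed sign and Igf1r moved closer to 0. The median over all 8 arrays was 0.024 (0.0067 without that array, and −0.0020 to 0.051 with any 1 array left out), against −0.0082 over the detected genes and 0.024 over all 22911 genes. In 0 of the 9 genes were the 2 groups free of overlap, against 2.81% of the detected genes.

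**Figure D1:**
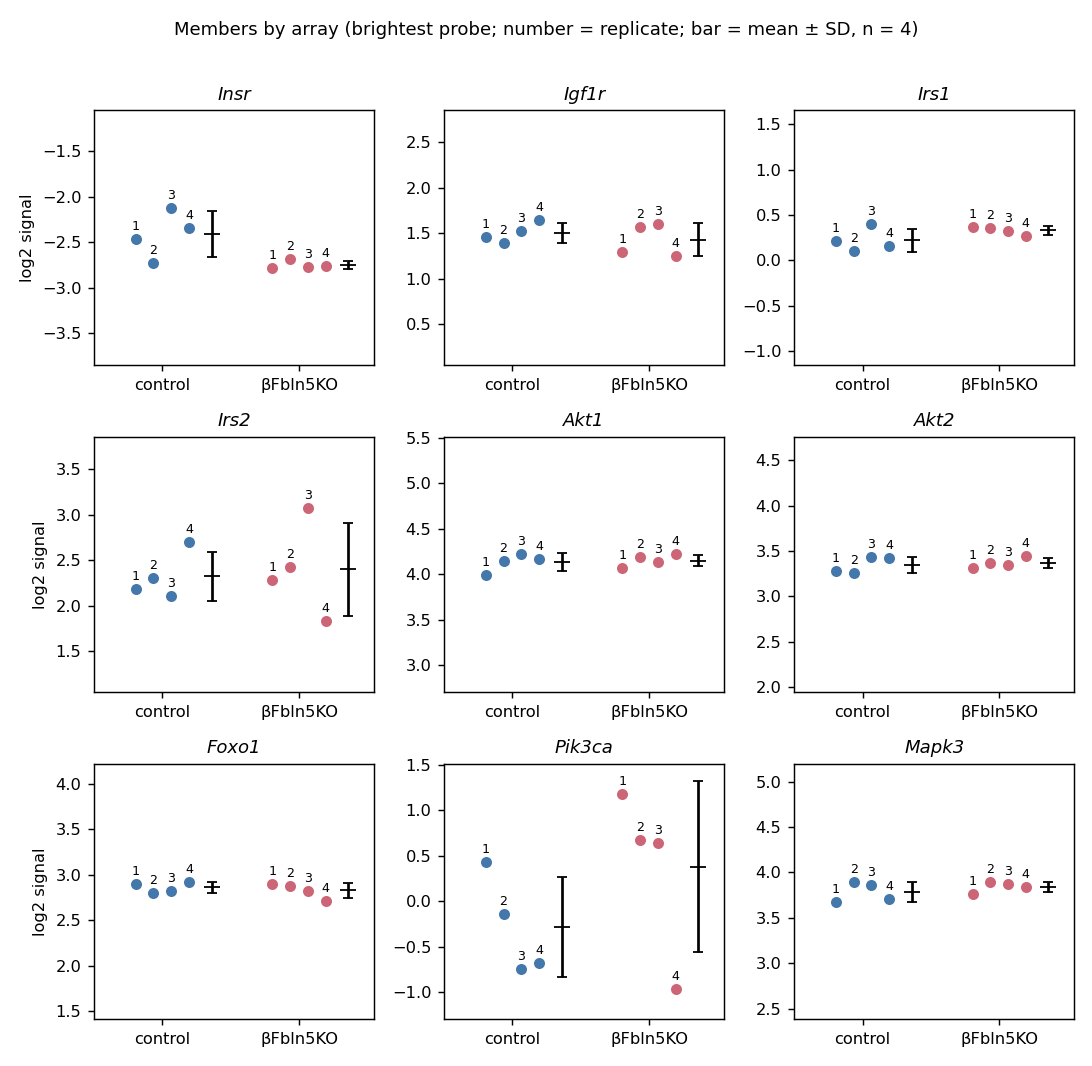
Signal of the brightest probe of each of the 9 genes (log2, relative to the array's 75th percentile) on the 4 control arrays (blue) and the 4 βFbln5KO arrays (red), with replicate numbers and the mean ± SD (n = 4); all panels span the same log2 range. The 2 groups overlap in every panel, most tightly for Akt1, Akt2, Foxo1 and Mapk3, and βFbln5KO replicate 4 is the lowest of the 8 arrays for Pik3ca, Irs2, Igf1r and Foxo1.

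Insr, the insulin receptor, was measured by probe A_55_P2173927. Its log2 signal was −2.46, −2.73, −2.12 and −2.34 on the control arrays and −2.78, −2.68, −2.77 and −2.76 on the βFbln5KO arrays. The βFbln5KO values were nearly equal to each other, and 3 of the 4 lay below every control value, the exception being βFbln5KO replicate 2, which lay above control replicate 2. Control arrays averaged −2.41 ± 0.25 and βFbln5KO arrays −2.75 ± 0.045 (means ± SD, n = 4). They differed by −0.34 on the log2 scale (SE 0.15, 95% interval −0.68 to −0.0024), to 0.79 of the control signal, with an unadjusted limma p of 0.0487 and an adjusted p of 0.199. The exact two-sided permutation test gave p = 0.0571, where the smallest p that 4 against 4 arrays allow is 0.0286. With 1 array left out the difference ran from −0.45 without control replicate 2, with an unadjusted limma p of 0.013, to −0.24 without control replicate 3, with an unadjusted limma p of 0.139, and no fit but the first kept that p under 0.05. With normexp background correction it was −0.22 (limma, adjusted p = 0.754). The second Insr probe was not well above background on any array and gives no fold.

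Igf1r encodes the receptor for insulin-like growth factors 1 and 2. Its brighter probe (A_55_P2736764) gave 1.46, 1.39, 1.52 and 1.65 in control and 1.29, 1.57, 1.60 and 1.25 in βFbln5KO. Arrays 2 and 3 of βFbln5KO sat among the control values, and arrays 1 and 4 lay below all of them. The log2 difference was −0.075 (SE 0.10, 95% interval −0.29 to 0.14; limma, adjusted p = 0.725). The second probe (A_51_P318365) gave −0.041 (limma, adjusted p = 0.887) and showed the same lower values on βFbln5KO arrays 1 and 4, at 0.54 and 0.37, than on arrays 2 and 3, at 0.84 and 0.78.

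The substrates Irs1 and Irs2 carry the signal from the receptors to phosphoinositide 3-kinase, and Irs2 is the substrate best known for maintaining β-cell mass. Irs2 is a known target of FoxO factors, and the letters TGTTTTG match a forkhead element, so the 250 bases before the RefSeq gene start of both substrates are shown here (minus strand, build GRCm38.p6, 5′ to 3′), with these letters in capitals.
Irs1, chr1:82291440-82291689: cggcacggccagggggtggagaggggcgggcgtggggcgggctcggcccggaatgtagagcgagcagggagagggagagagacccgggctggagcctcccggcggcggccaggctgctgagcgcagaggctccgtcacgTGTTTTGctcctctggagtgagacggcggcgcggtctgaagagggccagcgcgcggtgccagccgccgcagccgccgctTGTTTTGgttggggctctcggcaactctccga
Irs2, chr8:11008930-11009179: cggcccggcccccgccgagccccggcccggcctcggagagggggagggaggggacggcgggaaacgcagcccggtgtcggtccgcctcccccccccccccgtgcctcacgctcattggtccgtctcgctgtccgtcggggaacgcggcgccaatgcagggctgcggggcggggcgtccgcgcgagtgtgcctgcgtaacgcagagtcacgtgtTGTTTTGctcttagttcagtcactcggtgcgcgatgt
The motif begins 111 and 32 bases before the start of Irs1 and 37 bases before that of Irs2. The RefSeq table held 11 promoter windows for 7 of the 9 genes, with Insr and Mapk3 only named here. Of these 11 windows, 2 held TGTTTTG on either strand, namely the Irs1 and Irs2 windows shown, against 5.56% of all 32851 windows in the table. Akt1 and Akt2 have more than 1 window each, and so few windows cannot show an enrichment. The related forkhead letters TGTTTAC were found in 1 window (Akt1), against 3.17% of all windows, and the cyclic AMP response half-site TGACG in 3 (Irs1, and 2 windows of Akt2), against 17.8%. In Irs1 the half-site lies upstream of the first TGTTTTG and does not overlap it. These are matches of letters and not measured binding sites.

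Irs1 gave 0.21, 0.10, 0.40 and 0.16 in control and 0.37, 0.36, 0.32 and 0.27 in βFbln5KO. All βFbln5KO arrays lay between the second highest and the highest control value. Irs1 differed by 0.11 (SE 0.071, 95% interval −0.05 to 0.27; limma, adjusted p = 0.403). Without control replicate 3, which held the highest value, it was 0.18, with an unadjusted limma p of 0.0143 and an adjusted p of 0.165, and without control replicate 2, which held the lowest, it was 0.072 (limma, adjusted p = 0.63). For Irs2 the control arrays read 2.18, 2.30, 2.11 and 2.70, and the βFbln5KO arrays 2.28, 2.42, 3.07 and 1.83. The βFbln5KO group held both the highest and the lowest of the 8 values, on replicates 3 and 4. Its log2 difference was 0.076 (SE 0.24, 95% interval −0.47 to 0.63; limma, adjusted p = 0.903), and the interval covers ratios from 0.721 to 1.54. The sign of the Irs2 difference turned with single arrays, from 0.27 without βFbln5KO replicate 4 (limma, adjusted p = 0.553) to −0.15 without βFbln5KO replicate 3 (limma, adjusted p = 0.719).

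Pik3ca encodes the p110α catalytic subunit of phosphoinositide 3-kinase, and its only probe (A_65_P09318) was the most variable among those of the 9 genes. The control arrays gave 0.43, −0.14, −0.75 and −0.68, and the βFbln5KO arrays gave 1.18, 0.67, 0.64 and −0.97. The first 3 βFbln5KO arrays lay above every control array, and replicate 4 lay below every one. With all 8 arrays the log2 difference was 0.67 (SE 0.45, 95% interval −0.36 to 1.69), a ratio of 1.59 (0.778 to 3.24), with a limma p of 0.176 and an adjusted p of 0.441. With 1 array left out it ran from 0.40 without βFbln5KO replicate 1 (limma, adjusted p = 0.711) to 1.12 without βFbln5KO replicate 4 (limma, adjusted p = 0.0359). In the fit without replicate 4, 0.271% of the detected genes were higher after adjustment, but so were 19.8% of all 56603 probes tested, most of them dim, against 5 probes with all 8 arrays. Pik3ca was the only one of the 9 genes called in it. The call thus rests on leaving out 1 array, whose Fbln5 value lay within the control range.

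The values of Pik3ca were lowest on the arrays with the highest signal of acinar markers, which come from exocrine tissue. The summed linear signal of 7 such markers (Cpa1, Cpb1, Ctrb1, Cel, Pnlip, Cela2a and Rbpjl) was 922 to 2420 on control arrays and 552 to 1590 on βFbln5KO arrays, a 4.39-fold range over the 8 arrays, and all 7 were detected. All 7 had lower mean log2 signals in βFbln5KO, by a median of −0.93, and 0 of 7 had an unadjusted p under 0.05 (limma). Control replicates 3 and 4 and βFbln5KO replicate 4 had the 3 highest acinar values and the 3 lowest Pik3ca values. The mean log2 signal of the acinar markers was used as a covariate in a setting added after the data were seen. With it the log2 difference of Pik3ca was 0.039 (limma, adjusted p = 0.977). That of Insr was −0.22 (limma, adjusted p = 0.543) and that of Irs2 was −0.13 (limma, adjusted p = 0.86). The covariate was itself lower on average in βFbln5KO, so it shares part of its variation with genotype. Whether exocrine tissue accounts for the Pik3ca values was not tested. Summed signals of the other 8 marker lists, for β, α, δ, PP, ductal, endothelial, macrophage and mesenchymal cells, varied over the arrays by 1.22-fold to 1.96-fold.

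**Figure D2:**
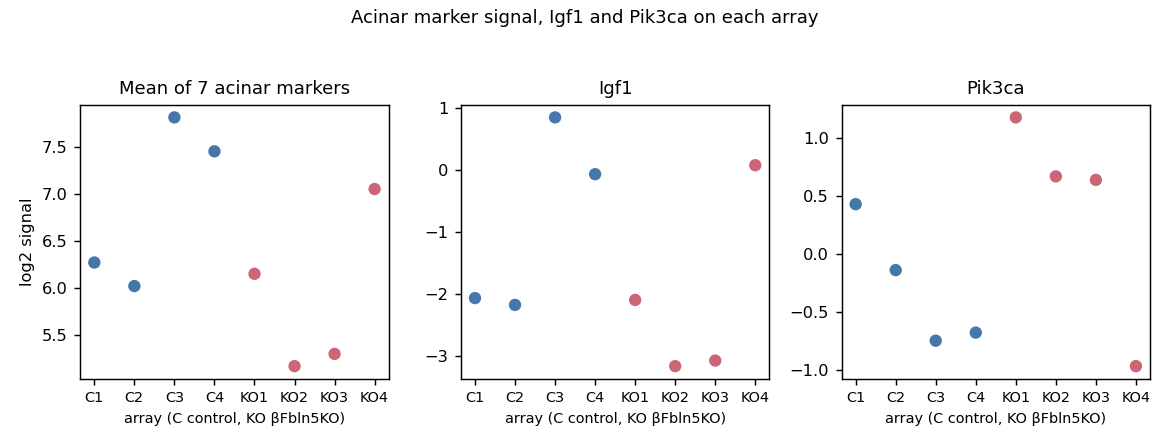
Mean log2 signal of 7 acinar markers (left), of Igf1 (middle) and of Pik3ca (right) on each array (C, control, blue; KO, βFbln5KO, red). C3, C4 and KO4 are the 3 highest arrays for the acinar markers and for Igf1, and the 3 lowest for Pik3ca.

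Akt1 and Akt2 encode the kinases that pass the phosphoinositide signal on to metabolism and cell growth. On its brighter probe (A_51_P237553) Akt1 gave 3.99, 4.14, 4.22 and 4.17 in control and 4.07, 4.19, 4.13 and 4.22 in βFbln5KO. The groups were interleaved, and the log2 difference was 0.024 (SE 0.064, 95% interval −0.12 to 0.17; limma, adjusted p = 0.882). Its dimmer probe (A_52_P418014), also detected, gave −1.24, −2.05, −1.09 and −1.77 in control and −2.37, −2.07, −2.38 and −2.14 in βFbln5KO. Here all 4 βFbln5KO arrays lay below all 4 control arrays. The log2 difference was −0.70 (SE 0.21, 95% interval −1.18 to −0.22), a ratio of 0.615, with an unadjusted limma p of 0.00938 and an adjusted p of 0.074, and the exact permutation test gave its smallest p, 0.0286. Groups without overlap, lower in βFbln5KO, were found in 3.48% of the 26612 detected probes (4.14% in either direction), and an unadjusted p under 0.05 with a lower signal in 5.42%. The 2 probes of Akt1 disagree, since their 95% intervals do not overlap.

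Akt2 gave 3.28, 3.26, 3.43 and 3.42 in control and 3.31, 3.37, 3.35 and 3.44 in βFbln5KO on its brightest probe (A_55_P2066518). The groups differed by 0.020 (SE 0.057, 95% interval −0.11 to 0.15; limma, adjusted p = 0.888). The other probes gave −0.078 (A_51_P408044) and 0.032 (A_55_P2066523), with adjusted limma p of 0.608 and 0.911, so all 3 probes had intervals that span 0. The interval of the brightest probe covers ratios from 0.928 to 1.11.

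**Figure D3:**
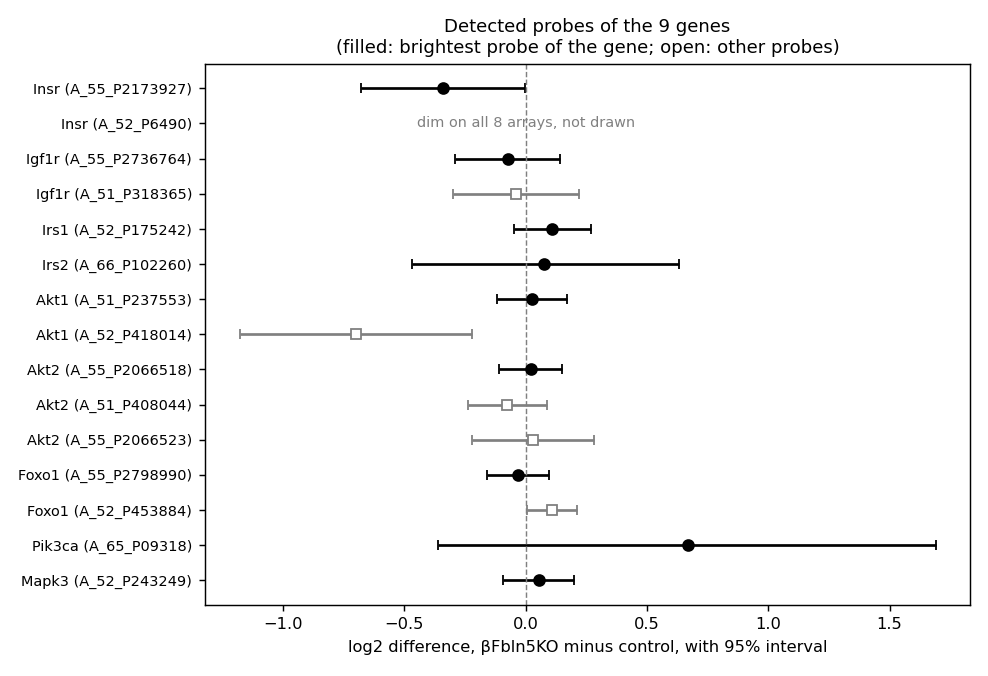
Difference in log2 signal, βFbln5KO minus control, with its 95% interval from limma (4 arrays per group), for the detected probes of the 9 genes; filled circles mark the brightest probe of a gene and open squares its other probes. The second probe of Akt1 lies at −0.70, apart from the first at 0.024, and the row of the Insr probe that was dim on all 8 arrays is left empty of a value.

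Foxo1 encodes the forkhead factor that Akt holds in the cytoplasm. Its brighter probe (A_55_P2798990) gave 2.90, 2.80, 2.82 and 2.92 in control and 2.90, 2.88, 2.82 and 2.71 in βFbln5KO. The log2 difference was −0.031 (SE 0.055, 95% interval −0.16 to 0.095; limma, adjusted p = 0.816). The second probe (A_52_P453884) gave 1.82, 1.76, 1.73 and 1.71 in control and 1.84, 1.91, 1.81 and 1.89 in βFbln5KO, with 3 of 4 βFbln5KO arrays above every control array. That difference, 0.11 on the log2 scale (SE 0.045), had an unadjusted limma p of 0.041, an adjusted p of 0.177 and an exact permutation p of 0.0571. Among detected probes, 0.853% had an unadjusted p under 0.05 with a higher signal in βFbln5KO, and 6.28% in either direction. The 2 probes of Foxo1 thus differed in sign, and their intervals overlap.

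Mapk3 encodes ERK1, a kinase at the end of the Ras branch. The control arrays gave 3.68, 3.90, 3.86 and 3.71, and the βFbln5KO arrays 3.76, 3.90, 3.87 and 3.84. All 4 βFbln5KO values lay within the control range, to 2 decimals. The mean difference was 0.054 (SE 0.065, 95% interval −0.093 to 0.20; limma, adjusted p = 0.706). The MEK genes, which encode the kinases that activate ERK, gave 0.11 for Map2k1 and −0.063 for Map2k2 (limma, adjusted p = 0.367 and 0.46).

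The 9 genes differed widely in how much their signal varied among arrays of a group. The SD within groups was 0.77 for Pik3ca, larger than in 98.3% of the 13650 detected genes, and 0.41 for Irs2, larger than in 93.8%. For Insr it was 0.18 and for Igf1r 0.15, against a median of 0.13 over those genes. The remaining genes were steadier, from 0.10 for Irs1 down to 0.072 for Foxo1, which is larger than in 12.7% of genes. On their brightest probes, Akt1, Akt2, Foxo1 and Mapk3 had 95% intervals that reach no further than 0.20 on the log2 scale in either direction, and Pik3ca and Irs2 had intervals that reach 1.69 and 0.63. The interval of the dimmer Akt1 probe reached −1.18.

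Differences between related genes within an array do not depend on the factor that scales 1 array to another, and 3 such pairs were tested by exact permutation over the arrays (two-sided), with p-values adjusted over the 3. Igf1r minus Insr was 3.92, 4.11, 3.63 and 3.98 in control and 4.07, 4.25, 4.37 and 4.01 in βFbln5KO. The mean was higher by 0.26 in βFbln5KO with overlapping groups (exact p = 0.114, adjusted p = 0.343). It was 0.14 with normexp background correction (exact p = 0.371, adjusted p = 0.914), and with 1 array left out it ran from 0.17 without control replicate 3 to 0.33 without control replicate 2. Akt2 minus Akt1 was the steadiest pair, with −0.70, −0.87, −0.79 and −0.75 in control and −0.76, −0.82, −0.78 and −0.77 in βFbln5KO. Its mean differed by −0.0036 (exact p = 0.943, adjusted p = 0.943). That value belongs to the brightest probes: averaged over the probes of each gene it was 0.33 (exact p = 0.0286, adjusted p = 0.0857), through the dimmer Akt1 probe. Irs2 minus Irs1 differed by −0.036 (exact p = 0.914, adjusted p = 0.943). No pair passed the threshold. The sizes within an array compare probes, and only their difference between groups can be read.

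**Figure D4:**
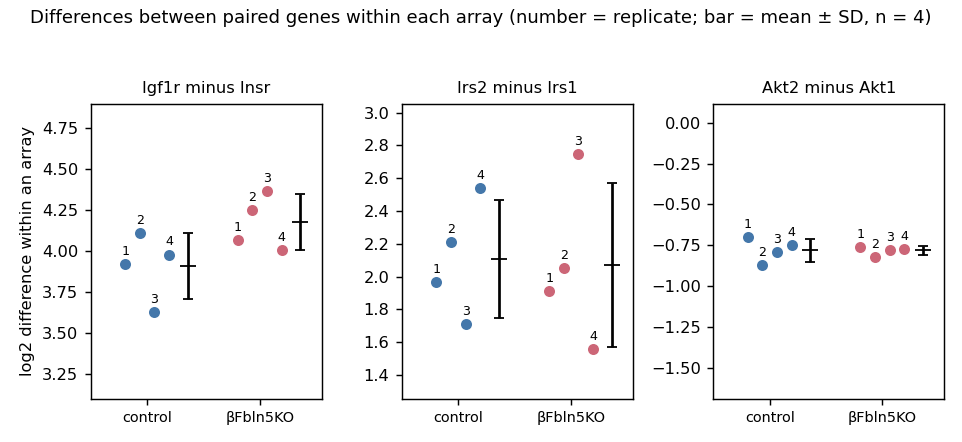
Difference in log2 signal between the brightest probes of related genes within each array, for 4 control (blue) and 4 βFbln5KO (red) arrays, with replicate numbers and the mean ± SD (n = 4). Groups overlap in all 3 panels, and Akt2 minus Akt1 has the narrowest spread, with an SD of 0.071 in control and 0.026 in βFbln5KO.

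The wider pathway was read on 98 further genes in 8 lists, of which 89 were detected. In limma, 0 of the 98 had an adjusted p under 0.05. Without adjustment, 5 of the 89 detected genes had a p under 0.05, all 5 with a lower signal in βFbln5KO, or 5.62% against 3.08% of all such genes. The count fell to 2 (Grb10 and Tbc1d4) with normexp background correction, without the mean-variance trend or without βFbln5KO replicate 1. With the acinar covariate it fell to 1, which was Gsk3b (−0.22; limma, adjusted p = 0.275), and the log2 differences of the other 4 genes were −0.50 for Grb10, −0.32 for Tbc1d4, −0.19 for Pik3r1 and −0.13 for Eif4ebp2 (limma, adjusted p = 0.293 to 0.408). The median log2 difference of the 89 genes was −0.014, against −0.0082 over all such genes. By list, the lower genes were 1 of 16 other receptors and adaptors (Grb10), 1 of 9 genes of phosphoinositide 3-kinase, lipid phosphatases and PDK1 (Pik3r1) and 3 of 20 genes of Akt, mTOR and their targets (Tbc1d4, Gsk3b and Eif4ebp2). There were none among 11 ligands and binding proteins, 12 other FoxO factors and FoxO targets, 19 genes from Ras to ERK, 8 receptor phosphatases and SOCS genes, and 3 genes of the FoxM1 axis.

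Grb10 encodes an adaptor that binds the insulin and IGF1 receptors and restrains their signaling. Its brighter probe gave −1.88, −2.25, −1.62 and −2.48 in control and −2.65, −3.05, −2.73 and −2.47 in βFbln5KO. It differed by −0.67 (SE 0.21; limma, adjusted p = 0.0795; exact permutation p = 0.0571). The second probe gave −2.17, −2.72, −2.35 and −2.70 in control and −2.99, −3.09, −2.97 and −2.91 in βFbln5KO, lower by a log2 value of −0.50 (SE 0.16; limma, adjusted p = 0.0813; exact permutation p = 0.0286). Both probes were detected, with 3 of 4 βFbln5KO arrays below every control array on the first and 4 of 4 on the second.

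Among the other lower genes, Tbc1d4, a Rab GTPase-activating protein that Akt phosphorylates, differed by −0.36 (limma, adjusted p = 0.0922). Gsk3b, a kinase that Akt inhibits, differed by −0.22 (limma, adjusted p = 0.103), Pik3r1, the p85α regulatory subunit that binds p110α, by −0.22 (limma, adjusted p = 0.172), and Eif4ebp2, a translational repressor under mTOR, by −0.14 (limma, adjusted p = 0.121). Groups did not overlap for Tbc1d4 and Eif4ebp2, which is 2.25% of the 89 genes against 2.07% of all such genes. All 3 probes of Gsk3b were lower (−0.22, −0.14 and −0.076), while those of Tbc1d4 disagreed in sign (−0.36, −0.11 and 0.074). The unadjusted p of Pik3r1 (by limma where no other test is named) rose to between 0.0842 and 0.104 without control replicate 3 or 4 or without βFbln5KO replicate 1 or 4, and to between 0.0545 and 0.0734 with normexp, without the trend, by the methods' t-test or with the replicate block. That of Gsk3b rose to between 0.0528 and 0.0552 without control replicate 4 or without βFbln5KO replicate 1 or 4, to 0.0506 without the trend and to 0.0681 with normexp. For Eif4ebp2 it was 0.0559 without βFbln5KO replicate 1, 0.0946 without the trend and 0.244 with normexp. Averaged over its probes, Tbc1d4 differed by −0.13, with an unadjusted limma p of 0.374. Without βFbln5KO replicate 4, Grb10 was at −0.75 (limma, adjusted p = 0.0606).

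**Figure D5:**
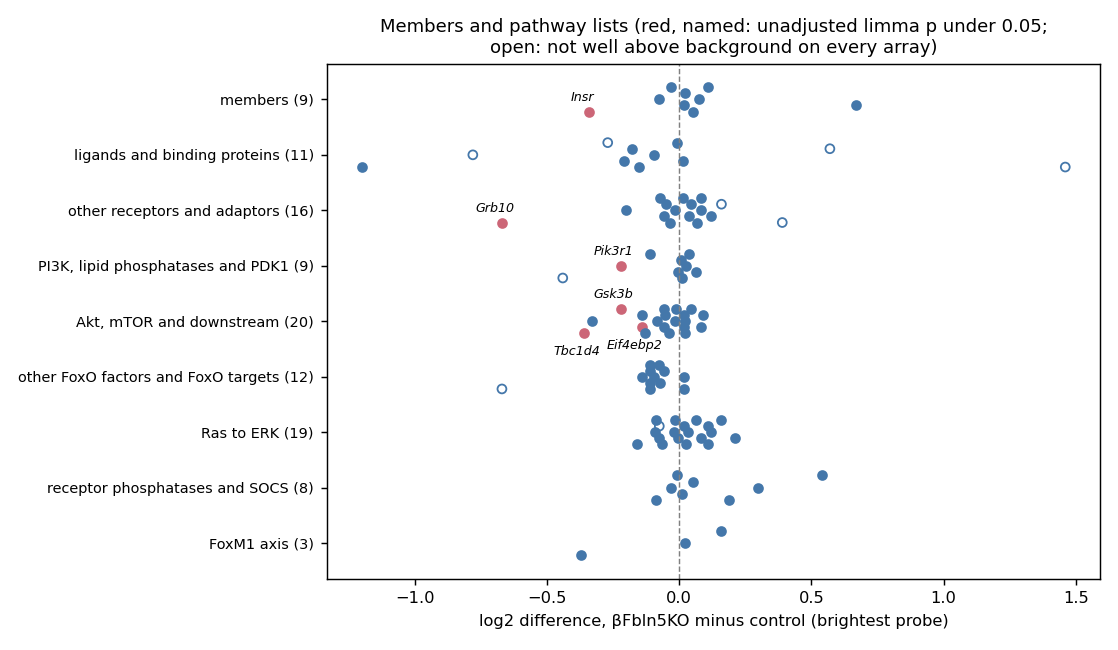
Difference in log2 signal, βFbln5KO minus control, of the brightest probe of each of the 9 genes (top) and of the 98 genes in 8 pathway lists. Red points with names have an unadjusted limma p under 0.05 and open points are probes not detected on every array; the 6 red points all lie below 0.

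The ligands of these receptors include Ins1 and Ins2, the mouse insulin genes. Ins1 differed by −0.15 and Ins2 by −0.18 (limma, adjusted p = 0.493 and 0.464), and Ins1 by 0.11 with quantile normalization. Igf1 gave −2.07, −2.18, 0.85 and −0.068 in control and −2.10, −3.17, −3.08 and 0.077 in βFbln5KO. Its 3 high values lay on control replicates 3 and 4 and βFbln5KO replicate 4, the arrays with the highest acinar marker signal. The log2 difference of Igf1 was −1.20 (limma, adjusted p = 0.485) and became 0.45 with the acinar covariate (limma, adjusted p = 0.279). With 1 array left out it ran from −1.92 without βFbln5KO replicate 4 (limma, adjusted p = 0.164) to −0.63 without control replicate 3 (limma, adjusted p = 0.749). Igf2 differed by −0.21 (limma, adjusted p = 0.816), by −0.41 without control replicate 1 or without control replicate 4, by −0.087 without βFbln5KO replicate 4 and by 0.16 without control replicate 3. Its dimmer probe (A_55_P2118173) gave −0.54 (limma, adjusted p = 0.308), with 3 of 4 βFbln5KO arrays below every control array. That probe was near background, well above it on 4 of 4 control arrays and 0 of 4 βFbln5KO arrays. Igfbp1, an IGF binding protein named here because its groups did not overlap, was dim on all control arrays and above background on 1 βFbln5KO array (replicate 4, −2.90), so no fold is given.

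The remaining genes read by name did not pass the threshold, and most lay near 0. Insrr, the insulin receptor-related receptor, differed by −0.035 (limma, adjusted p = 0.864), and Pik3cb, the p110β subunit, by 0.026 (limma, adjusted p = 0.928). The second Insrr probe (A_51_P233546), also detected, gave 0.083 (limma, adjusted p = 0.444), with 3 of 4 βFbln5KO arrays above every control array. Pdpk1, the kinase that activates Akt, differed by 0.039 (limma, adjusted p = 0.809), and by −0.042 on its second detected probe (limma, adjusted p = 0.804). Foxo3 differed by −0.11 (limma, adjusted p = 0.837). With 1 array left out, Foxo3 ran from −0.29 without control replicate 2 (limma, adjusted p = 0.425) to −0.040 without control replicate 3. For Pik3cb the sign depended on the background correction, and for Insrr on the scaling and on the probe. In the FoxM1 axis of mitotic genes, Foxm1 differed by −0.37, Plk1 by 0.023 and Cenpa by 0.16 (limma, adjusted p = 0.499, 0.975 and 0.776). Single arrays decided these values. Foxm1 was at −0.084 without βFbln5KO replicate 2, Cenpa at 0.017 without control replicate 2 or without βFbln5KO replicate 3, and Plk1 at −0.15 without βFbln5KO replicate 3 and 0.24 without control replicate 4. Control replicate 4 and βFbln5KO replicate 3 held the highest Plk1, Cenpa and Irs2 values of their groups. For Foxm1 the highest control value was on replicate 1 (−1.51, against −1.82 on replicate 4), and the highest βFbln5KO value on replicate 3 (−1.74). Irs2 was set beside these genes after the values were seen.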

How the data were processed

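Islet RNA from 4 control and 4 βFbln5KO extractions was hybridised to Agilent one-colour mouse arrays. For each spot the authors deposited the processed signal of Feature Extraction 11.0.1.1, an intensity from which background and spatial trends were removed, with no normalization between arrays. They also deposited a table of 35553 probes, which holds the same signals divided by 1 number per array. The study's methods name GeneSpring for normalization.

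The log2 of each signal minus that of the array's 75th percentile was used (709 to 1012 in control, 910 to 1055 in βFbln5KO). Outlier-marked values (0.356%) were left out, no spot was saturated, and spots of a probe were averaged. RefSeq accessions named 32994 of 56605 probes (58.3%). All 8 arrays entered limma 3.58.1 (lmFit, eBayes with trend) in R 4.3.3. Adjusted p-values (Benjamini-Hochberg, over every probe) were called under 0.05. Single values were also compared by exact two-sided permutation tests. A gene was read on its probe with the highest mean signal. The code was tested on simulated data.

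The 9 genes, the pathway and marker lists and the tests were chosen with earlier results of these data known. Named were the 9 genes with every probe, Fbln5, 14 pathway genes chosen by name, and up to 15 pathway genes detected on all 8 arrays with an unadjusted p under 0.05. Some pathway genes are not reported here and were left out of the lists. Probe sequences were not used here, and coordinates are given only for RefSeq promoter windows (GRCm38.p6).

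Alternatives were normexp (offset 50), quantile normalization, leaving out probes detected on under 4 arrays, 1 floor for dim signals, no trend in eBayes, outliers kept, averaging the probes of a gene, the methods' t-test, the deposited table, a replicate block, and leaving out each array in turn. An acinar covariate was added after seeing the data.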

Additional observations from a re-analysis of the deposited data

Results flagged for a closer look

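Among 68 sets of 4 arrays (the probes of the 9 genes and the pathway genes named above, in each group), 5 had 1 array that stood apart by Dixon's test at the 95% level, where chance gives about 5%. For Insr, βFbln5KO replicate 2 gave −2.68, against −2.78 to −2.76 on the other arrays of its group. Control replicate 1 was low for Insrr at 6.40, against 6.58 to 6.61. Control replicate 2 was low for Foxo3 at −4.15, against −3.50 to −3.40, and for Map2k2 at 2.07, against 2.17 to 2.18. For Igfbp1, added after its values were seen and dim on the other 7 arrays, βFbln5KO replicate 4 gave −2.90, against −6.60 to −6.33. For Pik3ca and Igf1, whose arrays fell far apart, no single array was marked.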

How the results depend on the processing

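Insr, Igf1r, Irs1, Pik3ca and Mapk3 kept their sign under every alternative in which they could be fitted, and none of the 9 genes was called after adjustment except Pik3ca without βFbln5KO replicate 4 (1 gene, 1.12, adjusted p = 0.0359; leave-one-out range of the count 0 to 1). The count of the 9 genes at an unadjusted p under 0.05 was 0 with normexp, quantile normalization, a common floor, outliers kept or the acinar covariate, 2 (Insr and Akt1) with the mean over a gene's probes, and 0 to 1 with 1 array left out. The 1 gene was not always Insr: it was Irs1 without control replicate 3, and Pik3ca without βFbln5KO replicate 4 and with the replicate block. Pathway genes called after adjustment numbered 0 to 1 with 1 array left out, the 1 being Igfbp1 without βFbln5KO replicate 4, when 11206 of 56603 probes were called higher and 338 lower. Pathway genes lower without adjustment numbered 2 with normexp, 2 without the trend, 1 (Gsk3b) with the covariate and 2 to 6 with 1 array left out. Those higher numbered 1 with quantile normalization, the floor, the methods' t-test, the deposited table, the replicate block or the covariate, and 0 to 3 with 1 array left out. The cause of these moves was not tested.

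Of the differences whose sign turned, those furthest from 0 with all 8 arrays were −1.20 for Igf1, −0.21 for Igf2 and −0.15 for Ins1. Normexp, which moved the median of all probes from 0.029 to −0.064, gave Foxo1 0.081, Pik3cb −0.00074, Irs2 minus Irs1 0.031 and Akt2 minus Akt1 0.0047. Quantile normalization gave Ins1 0.11, Insrr 0.053 and the pathway median 0.0039. The mean over probes gave Akt1 −0.34, Akt2 −0.0085, Foxo1 0.039, Insrr 0.024, Pdpk1 −0.0020 and Akt2 minus Akt1 0.33. The acinar covariate, chosen after seeing the data, gave Irs2 −0.13, Igf1 0.45, Foxo3 0.042, Plk1 −0.054 and the pathway median 0.0080. With 1 array left out, the ranges that crossed 0 were −0.023 to 0.054 for Akt1, −0.0082 to 0.047 for Akt2, −0.054 to 0.0067 for Foxo1, −0.15 to 0.27 for Irs2, −0.042 to 0.090 for Pik3cb, −0.0036 to 0.093 for Pdpk1, −0.15 to 0.24 for Plk1, −0.41 to 0.16 for Igf2, −0.081 to 0.0081 for Insrr, −0.0020 to 0.051 for the median of the 9 genes, −0.039 to 0.0078 for the pathway median, −0.26 to 0.13 for Irs2 minus Irs1 and −0.035 to 0.021 for Akt2 minus Akt1.

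Replicate numbers did not pair the arrays: deviations of same-numbered arrays correlated at 0.20, 0.29, −0.22 and −0.021 over 26612 probes, and 2 of 4 numbers had each other as best partner. With the replicate block the adjusted count stayed 0 of 9, but Insr lost its unadjusted limma p under 0.05 (0.0843 by limma), and Pik3ca gained one (0.0369 by limma, adjusted p = 0.219). Over all probes, the limma fit of the report called 5 higher and 1 lower, against 2 and 0 with the replicate block (2105 lower without adjustment), 6184 and 394 without the trend and 82 and 5 by the methods' t-test after Benjamini-Hochberg adjustment. Pik3ca's probe was not in the deposited table, so that alternative gave no value for it. Dim probes are limited by background, and slide row could not be separated from genotype.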
